A study of Mus musculus with 10 samples.

Results

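The replication-dependent histone genes lie in the Hist clusters of the mouse genome and were measured here in whole aortas of 10 male mice. The genes were taken by name, as those whose older symbol starts with Hist1h to Hist4h. The array's annotation carries newer names, and 0 of its symbols start with Hist, so the older names were looked up by gene identifier in a reference gene table of assembly GRCm38.p6. Of 70 such genes in that table, 30 had a probe set (a group of array probes summarized to 1 value) that names no other gene, out of 22180 genes measured in all. A further 39 were measured only by probe sets that several histone genes share, and H2ac14, an H2A pseudogene, had none. The 30 genes comprised 5 of 6 H1 genes, 8 of 20 H2A genes, 9 of 19 H2B genes, 0 of 12 H3 genes and 8 of 13 H4 genes. In the large Hist1 cluster on chromosome 13 lie 22 of them, with 5 in Hist2 on chromosome 3, 2 in Hist3 on chromosome 11 and 1 in Hist4 on chromosome 6. The annotation gives 28 as protein coding and 2, H2bu1-ps and H2af-ps2, as transcribed pseudogenes.

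The aortas came from 5 ApoE/IL-17 double knockout mice, offspring of crosses between IL-17-/- and ApoE-/- lines, and from 5 ApoE knockout mice. Loss of apolipoprotein E, which clears lipoprotein remnants from plasma, was thus shared by both groups. All mice were on a C57BL/6 background, were put on high fat food at 8 weeks of age, kept on it for 3 weeks and killed at 11 weeks. The labels name no cell type to which either deletion is limited. The comparison asks what loss of IL-17 adds in the aorta in early hyperlipidemia. Labels of the ApoE knockout samples speak of wild-type mice and of mice lacking ApoE and caspase-1, with no word on the double knockout. No source used here says whether both groups were bred, hybridized or scanned together, so that genotype and batch cannot be told apart.

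Histones package DNA. An octamer of H2A, H2B, H3 and H4 forms the nucleosome core, and H1 binds the linker DNA between cores. The clustered genes are transcribed mainly in S phase, when new DNA must be wrapped, under the coactivator NPAT. Their messages end in a stem-loop bound by SLBP in place of a poly(A) tail. Messages of 1 core type resemble each other in sequence, which may be why many probe sets are shared. No source used here says how the RNA was primed for labelling, which bears on how well messages without a tail are measured. Resting vessel wall divides little, and a level in whole tissue mixes all its cells: fewer cells of a type and less RNA per cell cannot be told apart.

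The control regions of 4 genes that fell are shown, 2 of H1 and 1 each of H4 and H2A, because the types differ in the elements that clustered histone promoters are known for. Each run holds 250 bases before to 50 after the transcription start, 5′ to 3′ on the gene's strand, from RefSeq in GRCm38.p6. Capitals mark TATAAA (the TATA box), CCAAT, ATTTGCAT (the octamer, bound by Oct-1) and AAACACA (an H1 promoter element), searched on both strands, so that a CCAAT on the other strand reads ATTGG and an octamer ATGCAAAT. The regions are chr13:23738557-23738856 on the plus strand for H1f2, chr13:21780576-21780875 on the minus strand for H1f5, chr13:22041313-22041612 on the minus strand for H4c9 and chr3:96220831-96221130 on the minus strand for H2ac20.
H1f2: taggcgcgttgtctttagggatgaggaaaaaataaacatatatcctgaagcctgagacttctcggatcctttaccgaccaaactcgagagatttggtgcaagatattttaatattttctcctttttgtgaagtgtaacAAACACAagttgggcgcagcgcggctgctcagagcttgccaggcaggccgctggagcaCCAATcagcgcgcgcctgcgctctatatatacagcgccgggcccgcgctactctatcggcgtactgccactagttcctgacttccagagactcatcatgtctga
H1f5: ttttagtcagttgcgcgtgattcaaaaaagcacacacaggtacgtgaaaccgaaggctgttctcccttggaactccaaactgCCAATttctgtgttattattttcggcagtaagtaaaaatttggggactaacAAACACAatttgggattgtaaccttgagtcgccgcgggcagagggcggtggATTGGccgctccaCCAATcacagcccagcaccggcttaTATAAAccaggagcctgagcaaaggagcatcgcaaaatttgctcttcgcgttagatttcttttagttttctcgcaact
H4c9: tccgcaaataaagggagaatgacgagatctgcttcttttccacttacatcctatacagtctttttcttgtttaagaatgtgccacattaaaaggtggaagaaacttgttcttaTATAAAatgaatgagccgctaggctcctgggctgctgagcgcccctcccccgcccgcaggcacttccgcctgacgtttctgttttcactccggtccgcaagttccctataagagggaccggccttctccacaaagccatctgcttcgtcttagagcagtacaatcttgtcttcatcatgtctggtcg
H2ac20: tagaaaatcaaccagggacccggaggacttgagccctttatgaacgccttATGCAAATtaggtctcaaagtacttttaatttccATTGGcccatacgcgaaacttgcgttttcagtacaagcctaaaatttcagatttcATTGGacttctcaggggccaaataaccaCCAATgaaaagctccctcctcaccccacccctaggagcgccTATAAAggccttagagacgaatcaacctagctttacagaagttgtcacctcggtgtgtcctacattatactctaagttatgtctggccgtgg

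In the H1f2 promoter the H1 element began 112 bases before the start and a CCAAT 54 bases before it. H1f5 had the same pair at 117 and 53 bases, with further CCAAT matches and a TATAAA at 28 bases. H4c9 held none of these but a TATAAA at 137 bases, and H2ac20 had an octamer at 200 bases, 3 CCAAT matches and a TATAAA at 42 bases. Promoters were found for 26 of the 30 genes. CCAAT was present in 5 of 5 H1, 7 of 7 H2A and 7 of 7 H2B promoters but in 1 of 7 H4 promoters, against 37.4% of all 32851 promoters in the table. The octamer was found in 4 of 7 H2A and 5 of 7 H2B promoters, in 0 of 5 H1 and 0 of 7 H4 promoters, and in 1.74% of all. The H1 element stood in 4 of 5 H1, 1 of 7 H2A, 2 of 7 H2B and 0 of 7 H4 promoters, and in 7.18% of all, while TATAAA stood in 61.5% of the histone promoters and in 13.6% of all. A match of letters describes the window and does not show that a factor binds there.

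Values are on a log2 scale as deposited, so a difference of 1 is a doubling, and changes are double knockout minus ApoE knockout. Tests are limma's moderated test across all 22180 genes with Benjamini-Hochberg adjustment, and a gene is called at an adjusted p below 0.05. Of all genes, 7.53% were called lower and 22.8% higher in double knockout aortas, and the median change was 0.10. The share of higher calls depended on scaling: 75.1% of the calls were higher in the values as deposited, 44.4% after quantile normalization and 22.8% after centring each array on its median. To mark the level of unused genes, 1432 receptor genes of smell, pheromone sensing and taste were taken, and the 95th percentile of their means was 5.80, called the receptor level here. Both group means lay below it in 16 of the 30 histone genes, and background may limit such values. Apoe averaged 6.98 ± 0.17 in double knockout and 6.31 ± 0.16 in ApoE knockout aortas (SD, n = 5 each), so its probe set does not check the deletion, and Il17a was at receptor level in both, with means of 4.66 and 4.41. All 8 smooth muscle markers, which define the wall of the aorta, were above the receptor level, with array means of 11.47 to 11.56 in double knockout and 11.01 to 11.54 in ApoE knockout aortas.

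Of the 30 clustered histone genes, 8 were called lower in double knockout aortas (26.7%, against 7.53% of all genes), 1 was called higher (3.33%, against 22.8% of all genes) and 21 were not called. The count of lower genes depended on the setting: it was 10 after quantile normalization, 15 after centring and 4 without replicate 3 of the ApoE knockout. Over all 22180 genes, 1671 were lower as deposited, 2479 after quantile normalization and 5641 after centring. Calls over all genes in either direction went from 6721 to 5056 without replicate 3 of the ApoE knockout. Among the 30 histone genes the change was negative in 21 and positive in 9, with a median of -0.24 against 0.10 over all genes. Relative to the median of all genes, the histone median lay lower by a difference of -0.34 as deposited and -0.39 after quantile normalization. Centring moves the change of every gene by the same amount, so it cannot alter this difference. H1 had 2 of 5 genes lower, H2A 3 of 8 lower and 1 higher, H2B 1 of 9 lower, and H4 2 of 8 lower. The medians were -0.51 for H1, -0.28 for H2A, -0.06 for H2B and -0.24 for H4, and differences between types were not tested. By cluster, 5 of 22 genes of Hist1 were lower and 1 higher, 2 of 5 of Hist2 were lower, 1 of 2 of Hist3 was lower, and the gene of Hist4 was not called.

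**Figure D1:**
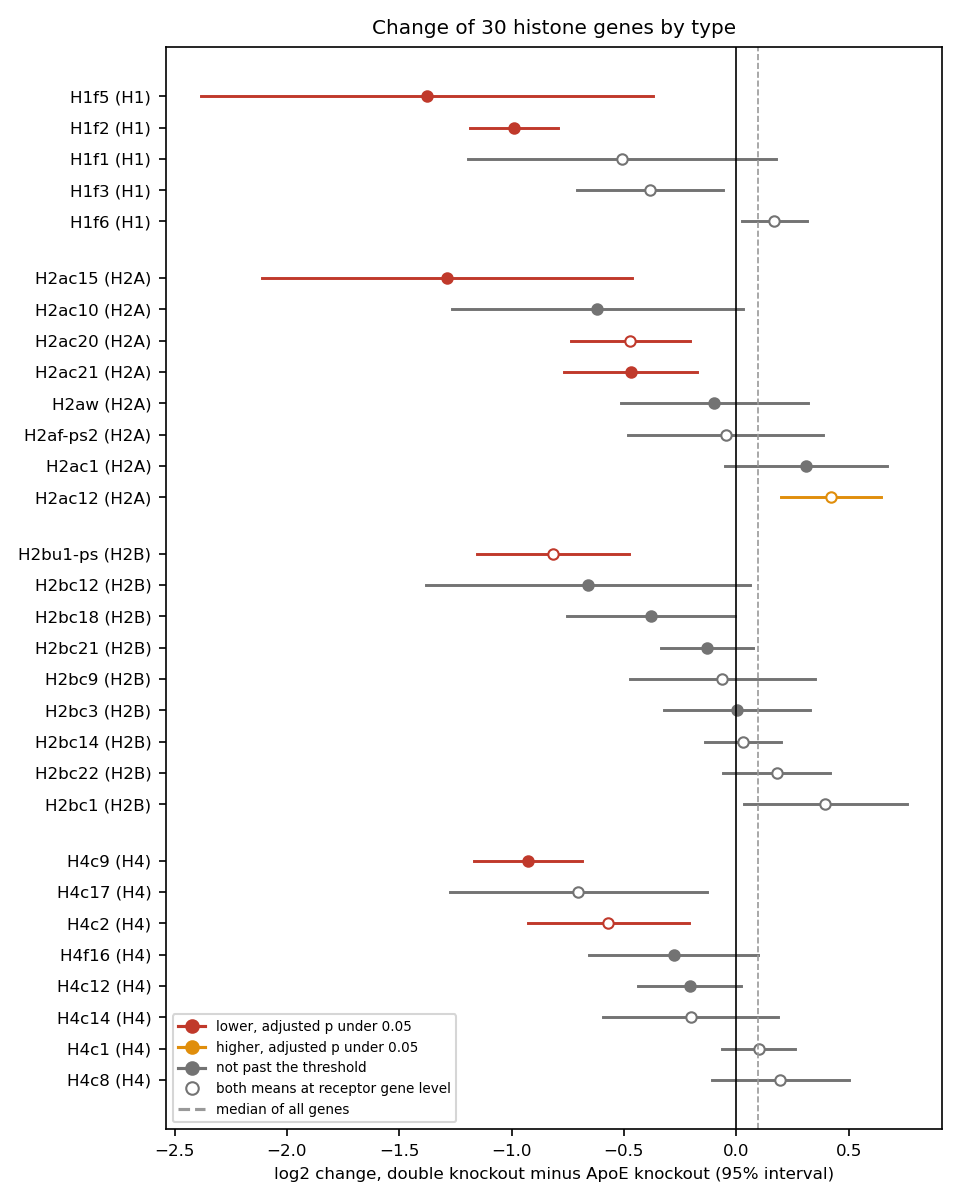
Log2 change (double knockout minus ApoE knockout, x axis) of the 30 histone genes, grouped by type, with 95% intervals from limma. Red genes were lower and the orange gene higher at an adjusted p below 0.05, open circles have both group means below the receptor level of 5.80, and the dashed line is the median of all genes, 0.10. Changes ran from -1.38 for H1f5 to 0.42 for H2ac12.

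The 10 arrays of the 2 groups did not overlap in 6 of the 30 genes, 4 lower and 2 higher. Over all genes, 4.8% did not overlap with the double knockout lower and 15.6% with it higher. The 4 lower ones were H1f2, H4c9, H2bu1-ps and H2ac21, and the 2 higher ones H2ac12 and H1f6, which was not called.

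H1f2 (Hist1h1c) encodes the linker histone H1.2, a main somatic H1. Its values were 8.78, 9.15, 8.90, 8.75 and 9.005 in double knockout aortas, against 9.77, 9.85, 9.93, 10.01 and 9.99 in ApoE knockout aortas. All double knockout arrays lay below all ApoE knockout arrays, and the spread within each group was small. The means were 8.92 ± 0.17 in double knockout and 9.91 ± 0.10 in ApoE knockout aortas (SD, n = 5 each), a change of -0.99 (SE 0.09, adjusted p = 6.67e-05), or 1.99-fold lower in the double knockout.

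H1f5 (Hist1h1b) encodes H1.5, another somatic linker histone. Its values were 5.87, 6.29, 4.61, 5.13 and 5.86 in double knockout and 5.70, 8.03, 7.57, 7.34 and 6.01 in ApoE knockout aortas. Replicates 2, 3 and 4 of the ApoE knockout were high, while replicates 1 and 5 lay inside the double knockout range. The change was -1.38 (SE 0.46, adjusted p = 0.0415). That call was lost without replicate 2, 3 or 4 of the ApoE knockout and without replicate 1, 3, 4 or 5 of the double knockout (adjusted p from 0.056 to 0.094). The double knockout mean of 5.55 lay below the receptor level, where background may make the measured fold too small.

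The other H1 genes were not called and had both means at receptor level. H1f3 (Hist1h1d, H1.3) had a change of -0.38 (adjusted p = 0.068) and H1f1 (Hist1h1a, H1.1) of -0.51 (adjusted p = 0.23). H1f6 (Hist1h1t), the linker histone of the testis, had 4.14 to 4.39 in double knockout and 4.04 to 4.12 in ApoE knockout aortas, a change of 0.17 (adjusted p = 0.073), and its sign turned after quantile normalization and after centring.

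H4c9 (Hist1h4i), one of many genes for the same H4 protein, had the next smallest p. Its values were 5.09, 5.52, 5.44, 5.38 and 5.43 in double knockout and 6.27, 6.25, 6.56, 6.38 and 6.03 in ApoE knockout aortas. Here too no array crossed into the other group. The change was -0.93 (SE 0.11, adjusted p = 2.88e-04), or 1.90-fold lower as measured. The double knockout values lay below the receptor level, so background may make this fold too small.

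H4c2 (Hist1h4b) was at receptor level throughout, with 2.52 to 3.37 in double knockout and 3.04 to 3.61 in ApoE knockout aortas, and was lower by a change of -0.57 (adjusted p = 0.023). The call was lost without replicate 3 of the ApoE knockout (adjusted p = 0.056), replicate 1 (0.053) or replicate 5 (0.051) of the double knockout. H4c17 (Hist1h4m) had a change of -0.70 that was not called (adjusted p = 0.062). H4c12 (Hist1h4k) gave the brightest signal of the 30, though signals of different probe sets do not rank RNA amounts. It had 11.80 to 12.17 in double knockout and 12.00 to 12.36 in ApoE knockout aortas, a change of -0.21 that was not called (adjusted p = 0.15). H4f16 (Hist4h4), the lone gene of the Hist4 cluster, had a change of -0.28 and H4c8 (Hist1h4h) one of 0.20, neither called. A second, dimmer probe set of H4f16 gave 0.32. H4c1 and H4c14, the remaining H4 genes, had changes of 0.10 and -0.20.

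Among the H2A genes, H2ac15 (Hist1h2ak) had values of 5.29, 5.99, 4.68, 4.93 and 5.53 in double knockout and 5.70, 7.72, 7.00, 6.68 and 5.75 in ApoE knockout aortas. As in H1f5, replicates 2, 3 and 4 of the ApoE knockout stood above the rest. The change was -1.29 (SE 0.38, adjusted p = 0.025), with the double knockout mean of 5.28 below the receptor level. The call was lost without replicate 3 of the ApoE knockout (adjusted p = 0.059) or replicate 3 (0.059) or 4 (0.057) of the double knockout. H2ac15 is also listed by a bright probe set shared by 12 H2A genes. It had means of 10.37 in double knockout and 10.74 in ApoE knockout aortas, a change of -0.37 that was not called (adjusted p = 0.17).

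H2ac21 (Hist2h2ab) had 6.88, 7.06, 6.46, 6.97 and 7.10 in double knockout and 7.20, 7.57, 7.61, 7.30 and 7.15 in ApoE knockout aortas. The groups did not overlap, but the closest arrays of the 2 groups lay near each other. The change was -0.47 (SE 0.14, adjusted p = 0.023). A second, dimmer probe set of the gene gave 0.23, and the mean of both gave -0.12 (adjusted p = 0.34). The call was also lost without replicate 2 (adjusted p = 0.054) or 3 (0.057) of the ApoE knockout.

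H2ac20 (Hist2h2ac) fell by 0.47 (adjusted p = 0.014) with both means at receptor level, 5.12 ± 0.27 in double knockout and 5.59 ± 0.09 in ApoE knockout aortas (SD, n = 5 each). H2ac12 (Hist1h2ah) was the gene called higher, with 2.03 to 2.53 in double knockout and 1.59 to 1.93 in ApoE knockout aortas, a change of 0.42 (SE 0.10, adjusted p = 0.011). Both groups were far below the receptor level, receptor genes themselves had a median change of 0.29, and the call was lost after quantile normalization (0.25, adjusted p = 0.11). H2ac12 is also listed by probe sets shared with other H2A genes. Those called were lower, with changes of -0.39, -2.08 and -0.34 at receptor level. The rest, with changes from -0.64 to 0.04, were not called. H2ac10 (Hist1h2af) had 8.93 to 9.64 in double knockout and 8.87 to 10.63 in ApoE knockout aortas, and H2ac1 (Hist1h2aa), the testis H2A, had a change of 0.31, and neither was called. H2aw and H2af-ps2 had changes of -0.10 and -0.05.

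Among the H2B genes, 1 of 9 was called. It was H2bu1-ps (Hist3h2bb), a transcribed pseudogene at receptor level, with 3.55, 3.57, 2.79, 3.18 and 3.40 in double knockout and 3.90, 4.35, 3.89, 4.26 and 4.17 in ApoE knockout aortas. The groups did not overlap, and the change was -0.82 (SE 0.15, adjusted p = 0.0034). A probe set that H2bu1-ps shares with H2bu2, with both means at receptor level, had a change of 0.19 that was not called (adjusted p = 0.50). The 4 coding H2B genes with at least 1 group mean above the receptor level were not called. H2bc12 (Hist1h2bk), whose double knockout mean of 5.54 lay below that level, had -0.66 (adjusted p = 0.15). H2bc18 (Hist2h2bb) had -0.38 (adjusted p = 0.11) and H2bc21 (Hist2h2be, studied in olfactory neurons of the mouse) -0.13 (adjusted p = 0.30). H2bc3 (Hist1h2bb), with a mean of 7.58 in each group, had 0.003 (adjusted p = 0.99). H2bc1 (Hist1h2ba), the testis H2B, had a change of 0.40 (adjusted p = 0.089) and H2bc22 (Hist1h2bp) one of 0.18, whose sign turned after quantile normalization and after centring. H2bc14 and H2bc9, both at receptor level, had changes of 0.03 and -0.06. Genes of H2A and H2B often lie head to head on shared control regions. Among the 26 genes with a promoter in the table, 2 pairs had overlapping windows on opposite strands. H2ac12 and H2bc12 had changes of 0.42 and -0.66, and the testis pair H2ac1 and H2bc1 had 0.31 and 0.40. H2ac20 and H2bc21, neighbours on chromosome 3, had -0.47 and -0.13, but no promoter window of H2bc21 was used here.

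**Figure D2:**
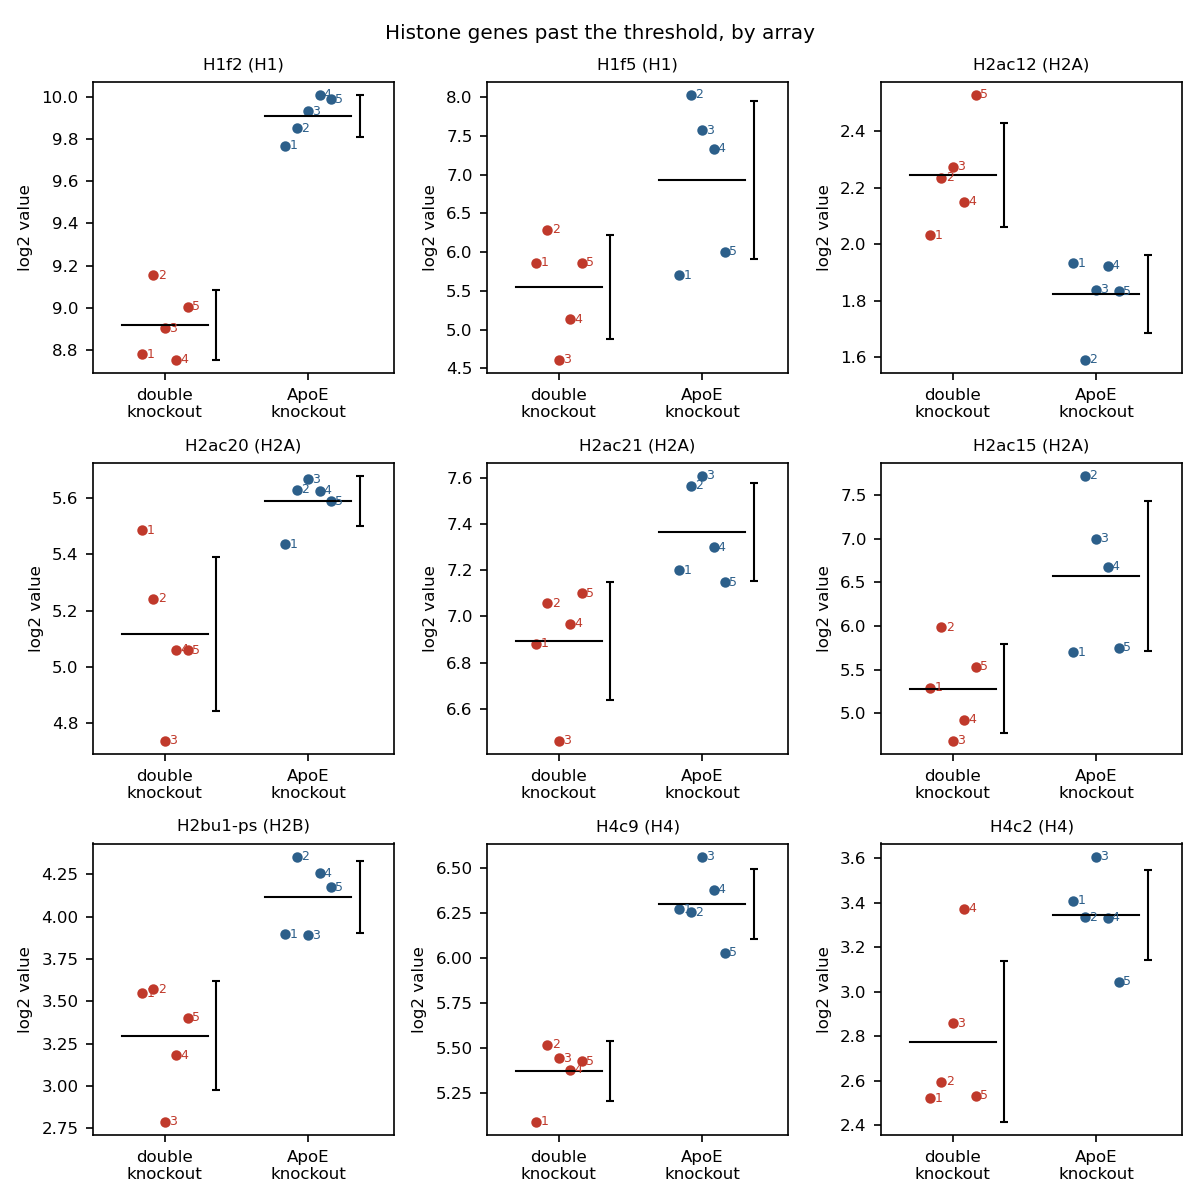
Log2 values by array (y axis, scaled per panel) of the 9 called histone genes, double knockout in red and ApoE knockout in blue, with the replicate number beside each point, the mean as a line and the SD as a bar (n = 5 each). H1f2 and H4c9 separate the groups, while H1f5 and H2ac15 are high in ApoE knockout replicates 2, 3 and 4.

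Aortas of the ApoE knockout differed among themselves in many histone genes. Replicates 2, 3 and 4 were all above replicates 1 and 5 in 15 of the 30 genes, against 10.5% of all genes. These arrays were picked out after their values were seen, so no test is given. Of the 8 genes called lower, 4 had this pattern (H1f5, H2ac15, H2ac20 and H2ac21) and 4 did not (H1f2, H4c9, H4c2 and H2bu1-ps). The mean of the 30 genes was 5.48, 5.56, 5.20, 5.38 and 5.47 in double knockout arrays and 5.51, 5.88, 5.90, 5.88 and 5.49 in ApoE knockout arrays. Replicates 1 and 5 of the ApoE knockout thus lay within the double knockout range. The mean of the H4 genes was 5.52, 5.45, 5.30, 5.62 and 5.49 in double knockout arrays and 5.70, 5.77, 6.01, 5.94 and 5.59 in ApoE knockout arrays, where replicate 1 lay above all double knockout arrays. The mean of the shared H4 probe sets was 4.67 to 5.44 in double knockout and 5.79 to 6.29 in ApoE knockout arrays, without overlap.

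The same order of arrays appeared in 18 of 19 genes of a mitosis list and 12 of 26 genes of an S phase list, and in 9 of 11 T cell markers. It appeared in 4 of 10 macrophage markers, 3 of 12 neutrophil markers, 4 of 16 histone chaperones, 3 of 8 replication-independent histones and 2 of 17 genes of histone message processing. It appeared in 1 of 11 red cell markers, 1 of 7 endothelial markers, 0 of 9 platelet markers, 0 of 8 B cell markers and 0 of 8 smooth muscle markers, and in 0 of 6 fibroblast and 0 of 5 white adipocyte markers. Mean T cell marker levels were 7.07, 6.55, 6.17, 6.08 and 6.70 in double knockout and 7.08, 8.50, 8.14, 7.95 and 6.64 in ApoE knockout aortas, with all 11 markers above the receptor level and 7 called lower (4 without replicate 3 and 11 without replicate 5 of the ApoE knockout). Red cell markers differed between the groups without overlap, with means of 5.82 to 6.12 in double knockout and 7.05 to 7.59 in ApoE knockout aortas (7 of 11 lower, with Klf1 and Gata1 at receptor level). Platelet markers were likewise lower, 7.74 to 8.22 in double knockout and 9.05 to 9.54 in ApoE knockout aortas (8 of 9 lower, 1 higher, 0 at receptor level). Means of B cell markers (5.78 to 6.05 against 6.565 to 7.29) and neutrophil markers (5.77 to 5.99 against 6.18 to 7.49) were also lower without overlap. Means of fibroblast markers were higher in double knockout aortas without overlap (11.34 to 11.70 against 11.235 to 11.33). Beside the marker calls, 7.53% of all genes were called lower and 22.8% higher. The part of these cells in the histone values was not tested.

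**Figure D3:**
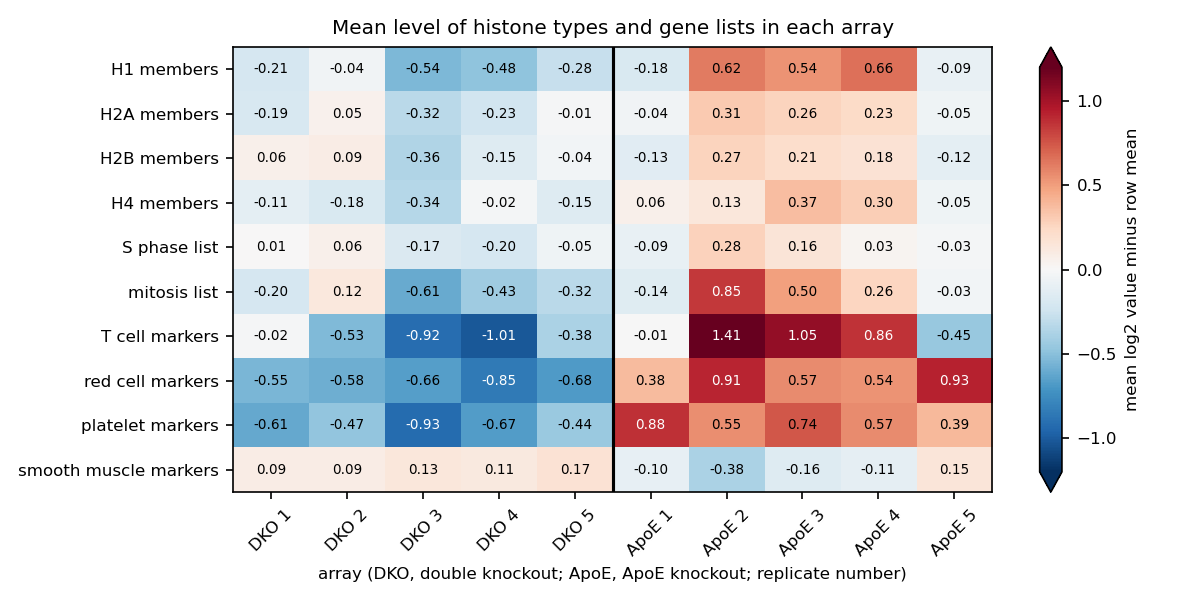
Mean log2 value of each histone type and gene list in each array, minus the mean of its row (colour and printed number), with double knockout arrays left of the line and ApoE knockout arrays right of it. H1, H2A and H2B genes, the mitosis list and T cell markers are high in ApoE knockout replicates 2, 3 and 4, H4 genes are highest in replicates 3 and 4, and red cell and platelet markers are high in all ApoE knockout arrays.

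The probe sets shared by several histone genes could not be tied to 1 gene, but they hold most of the measurements of these clusters and all of those of H3. There were 38, of which 35 had values of their own. Of the 35, 9 were called lower (25.7%, against 7.53% of all genes) and 2 higher (5.71%, against 22.8% of all genes). The other 24 were not called, the median was -0.34, and 19 were at receptor level in both groups. Lower calls came from 3 of 5 H4, 4 of 9 H2A and 2 of 8 H2B probe sets and from 0 of 12 for H3, where 2 were lower at an unadjusted p below 0.05. With 1 array left out, 5 to 12 of the 35 were lower, 5 without replicate 3 of the ApoE knockout and without replicate 3 or 4 of the double knockout.

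One probe set shared by 13 H4 genes had 5.33, 5.81, 4.68, 5.01 and 5.41 in double knockout and 7.86, 7.37, 8.03, 7.20 and 6.98 in ApoE knockout aortas. Every double knockout array was below every ApoE knockout array, and the change of -2.24 (SE 0.24, adjusted p = 1.63e-04) was the largest of any histone probe set. A further probe set of the same 13 genes changed by -1.22 (adjusted p = 0.0035), and one of 6 H4 genes, H4c9 among them, by -0.76 without overlap (adjusted p = 9.3e-04). The other pair of the 13 genes had changes of -0.26 and -0.45, neither called, with both means at receptor level. Probe sets of the same genes thus differed in size of change. The 3 called H4 probe sets passed the test with each array left out in turn.

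A probe set of 10 H2A genes had 3.28, 4.63, 2.75, 3.32 and 4.01 in double knockout and 3.88, 6.98, 6.26, 5.87 and 5.41 in ApoE knockout aortas, a change of -2.08 (SE 0.51, adjusted p = 0.012), with both means at receptor level. It too passed with each array left out in turn. The brightest called ones were less changed: -0.41 for a probe set of 3 H2A genes (adjusted p = 0.041) and -0.53 for one of 12 H2B genes (adjusted p = 0.047). Both of these calls were lost without replicate 2, 3 or 4 of the ApoE knockout and without replicate 2, 3, 4 or 5 of the double knockout, and that of the H2B probe set also without its replicate 1 (adjusted p from 0.051 to 0.104). For H3, whose tail carries many of the known chromatin marks, 10 of 12 probe sets were at receptor level. The 2 called higher (16.7% of the 12, against 22.8% of all genes) had changes of 0.46 and 0.48. Both calls were lost after quantile normalization (adjusted p = 0.074 and 0.21). Under that scaling another pair of H3 probe sets at receptor level passed as lower (adjusted p = 0.031 and 0.042). The brightest H3 probe set, shared by 8 genes, had a change of -0.36 and was not called (adjusted p = 0.10).

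**Figure D4:**
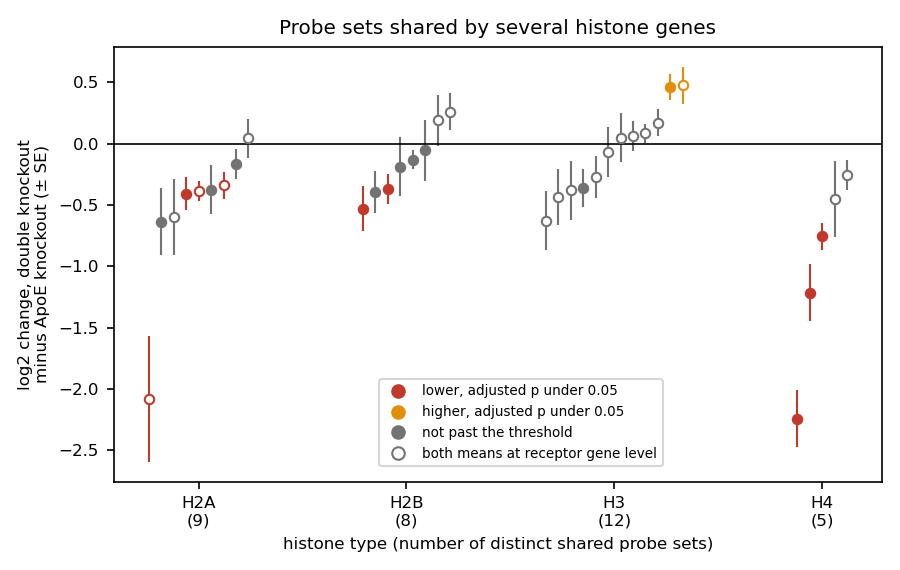
Log2 change (double knockout minus ApoE knockout, y axis, ± SE) of the distinct probe sets shared by several histone genes of 1 type (x axis, number of probe sets in brackets). Red points were lower and orange points higher at an adjusted p below 0.05, and open points have both means at receptor level. H4 holds the largest drop, -2.24, and no H3 probe set was called lower in the values as deposited.

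Genes that act with the clustered histones were described from lists. Of 8 replication-independent histones, 5 were called lower (62.5%, against 7.53% of all genes) and 0 higher, with a median of -0.22. Synthesis of these histones is mostly not tied to S phase, and their messages mostly carry poly(A) tails. H2az1, a variant H2A found at promoters, changed by -0.31 (adjusted p = 0.022), Cenpa, the H3 of centromeres, by -0.40 (adjusted p = 0.025), and H2az2 by -0.23 (adjusted p = 0.029). Macroh2a2, a large variant H2A of silent chromatin, was at receptor level and changed by -0.22 (adjusted p = 0.036). With 1 array left out, 0 to 4 of the 8 were lower. There were 4 without replicate 1 or 5 of the ApoE knockout, 0 without replicate 3 of the double knockout, and 1 to 3 without any other array.

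Of 17 genes for histone message synthesis and processing, 0 were called in either direction by limma or by the per-gene test without moderation, with a median of -0.02. At an unadjusted p below 0.05, 2 were lower and 1 higher by limma. After centring of the arrays 6 of the 17 were called lower, where 5641 of all 22180 genes were called lower. Slbp, the stem-loop binding protein, had a change of -0.20 (adjusted p = 0.13), Eri1, the exonuclease that trims the stem-loop, one of -0.27 (adjusted p = 0.072), and Npat one of -0.02 (adjusted p = 0.90). Of 16 histone chaperones, 3 were lower (18.8%) and 2 higher (12.5%), against 7.53% and 22.8% of all genes. Asf1b, the H3-H4 chaperone of dividing cells, changed by -0.81 (adjusted p = 0.017), Asf1a by -0.24 and Hat1, which acetylates new H4, by -0.25. Nap1l1, an H2A-H2B chaperone, rose by 0.29 (adjusted p = 0.0081) and Atrx, an H3.3 loading factor, by 0.26 (adjusted p = 0.011). With 1 array left out, 1 to 3 chaperones were lower and 2 higher, and 1 was lower when replicate 2, 3, 4 or 5 of the ApoE knockout or replicate 1, 3 or 4 of the double knockout was left out.

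Of 26 S phase genes, 4 were lower (15.4%) and 1 higher (3.85%), against 7.53% and 22.8% of all genes, with a median of -0.13. The change was negative in 18 and positive in 8. Mcm2, a subunit of the replicative helicase, changed by -0.49 (adjusted p = 0.0038) and Rrm2, the regulated subunit of ribonucleotide reductase, by -0.86 (adjusted p = 0.030). Fen1, at receptor level, was the gene called higher, with 0.32 (adjusted p = 0.014) and no overlap between the groups. Pcna, the sliding clamp, had 0.03 (adjusted p = 0.87). Of 19 mitosis genes, 7 were lower (36.8%) and 0 higher, with a median of -0.39. Nusap1, a spindle protein, changed by -2.39, Mki67, the proliferation marker, by -1.21 (adjusted p = 0.0095), and Ccnb2, a mitotic cyclin, by -1.17 (adjusted p = 0.011). With 1 array left out, the lower count ran from 1 to 5 for S phase and from 4 to 8 for mitosis. Leaving out replicate 2, 3 or 4 of the ApoE knockout, or replicate 3 of the double knockout, gave 1 and 4, leaving out replicate 4 of the double knockout 2 and 4, and leaving out its replicate 5 gave 3 and 4.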

How the data were processed

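Total RNA from 10 aortas was measured with Mouse Gene 2.0 ST arrays from Affymetrix. The deposited values are 1 log2 number per probe set and array; base 2 was inferred from their range. The submitters' processing notes name limma, without a version or role. No source used here states the background correction or normalization. Array number, not read depth, limits precision.

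The highest-mean probe set with 1 platform symbol stood for each gene (23521 of 41345 probe sets, 22180 genes), with no filter and no further normalization. Platform symbols were newer than the rule's, so Hist names were found by gene identifier. lmFit and eBayes of limma 3.58.1 (R 4.3.3) had group as the only term, two-sided. Probe sets shared by several histone genes were fitted in the same model. Named are the 6 members of each type with the smallest p, up to 4 genes of each list and the targeted genes; further members are named to account for all 30, and Npat, Pcna and some markers were chosen after their values were seen. Members and lists were chosen with earlier results of these data known. Of 189 listed genes 16 were not used. Call counts of lists not given above are 4 of 8 lower for B cells, and 6 of 12 lower and 1 higher for neutrophils. For macrophages 1 of 10 was lower (1 to 4 with 1 array left out), and for endothelium 3 of 7 (0 to 3 with 1 array left out). Higher calls were 3 of 8 for smooth muscle (0 to 3 likewise) and 2 of 6 for fibroblasts (1 to 2 likewise). Beside these counts, 7.53% of all genes were called lower and 22.8% higher. For white adipocytes 0 of 5 were called. Alternatives covered scaling, dim genes, probe sets, prior, array weights, replicate block, threshold, Welch's test per gene, member rule and each array left out. On simulated data for this comparison (22180 genes, 200 changed), 95% of genes changed by 1 and 100% of those changed by 2 were recovered, with 13 false calls. Noise was drawn independently for each gene and array, so these figures do not cover shifts of whole arrays or variation that genes share. Figures used matplotlib 3.10.9.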

Additional observations from a re-analysis of the deposited data

Results flagged for a closer look

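In 94 groups of 5 arrays examined, 4 had an array far from the others, and chance alone marks about 1 in 20 groups. H1f6 was 4.038 in replicate 1 of the ApoE knockout, where the others had 4.105 to 4.124. H2ac12 was 1.591 in replicate 2 of the ApoE knockout, where the others had 1.834 to 1.934. Both lie at receptor level. In replicate 3 of the double knockout, H2bc18 was 6.232, where the others had 6.774 to 6.91, and H2bc21 was 7.148, where the others had 7.507 to 7.619.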

How the results depend on the processing

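Of the 8 genes called lower, H1f2, H4c9 and H2bu1-ps passed the test under all alternatives that kept them, H2bu1-ps being removed with the dim genes. The probe set that H2bu1-ps shares with H2bu2 had the opposite sign (0.19, not called). Against 8 lower, 1 higher, a median of -0.2432 and 6721 calls over all genes, quantile normalization gave 10, 0, -0.4076 and 4461. Centring gave 15, 0, -0.4477 and 7310. Of the calls over all genes, 1671 were lower as deposited, 2479 after quantile normalization and 5641 after centring. Without dim genes the values were 5, 0, -0.4259 and 3945, with fewer genes tested. Counting all 38 shared probe sets as members, repeats of the same values included, gave 19 lower and 3 higher. Of the 38, 35 had values of their own, and of these 9 were lower and 2 higher. Welch's test gave 3 lower, and an adjusted p of 0.01 gave 3 lower, 0 higher and 2970 over all genes. With 1 array left out, 4 to 10 were lower, 1 to 2 higher, the median ran from -0.3269 to -0.1645, and 5056 to 7022 genes were called. The count of 4 came without replicate 3 of the ApoE knockout, where H1f5, H2ac15, H2ac21 and H4c2 were lost, and 2 were higher without replicate 3 of the double knockout. The sign turned for H1f6 (-0.11 with quantile normalization, -0.03565 with centring), H2bc22 (-0.08957 and -0.02473), H4c8 (-0.008618 with centring) and H4f16 (0.02298 with the mean over probe sets). Apart from fewer genes tested, the cause was not tested. Same-numbered arrays correlated from -0.13 to 0.26 over 5 pairs, so not every pair deviated together, and the labels give no shared litter or day. That 6 of 10 arrays correlated best with their own number reflects 3 pairs, replicates 1, 2 and 5, each counted from both sides. Their correlations were 0.26, 0.20 and 0.14, at most a weak hint of pairing from the data, not from the design. The replicate block gave 7 lower and 6594 over all genes, losing H1f5. Background limits the 16 genes at receptor level.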
